A study of Mus musculus with 20 samples.

Results

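The genes described here are transcription factors of the primitive streak and of the caudal end of the mouse embryo: Mixl1, Eomes, Mesp1, Gsc, Foxh1, Evx1, Cdx1, Cdx2, Cdx4 and brachyury. They were chosen by name, as probe sets annotated with 1 of these gene symbols and no other. Of the 10 genes named, 9 were found in this way, with 13 of the 45101 probe sets of the array. Brachyury, sought as T and as Tbxt, was not analysed here. All 9 passed the filter on low signal, as did 14045 of the 18194 genes with a probe set of their own.

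Whole embryos of wild-type C57BL/6 mice, kept specific-pathogen free, were collected without the amnion at 8 stages. The 4 stages up to E10.5, which are E7.5 and each day after it in days of embryonic development, had 3 arrays apiece. The later stages, every other day through E18.5 with E12.5 as the earliest, had 2 arrays apiece. Every sample was of mixed sex and held total RNA of several embryos in a pool, and each was read on a separate Affymetrix array of the type Mouse Genome 430 2.0. There was no treatment and no mutant, so each comparison sets a later stage against an earlier one. In such RNA, fewer cells of a type and less RNA per cell cannot be told apart.

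The primitive streak is the groove at the posterior end of the gastrulating embryo through which epiblast cells leave to form mesoderm and definitive endoderm. NODAL signals reach its genes through SMAD proteins and their DNA-binding partner FOXH1, and WNT signals through TCF/LEF factors. Eomes, Mixl1 and Mesp1 act in the cells that leave the streak, Gsc marks its anterior end, and Evx1 marks its posterior part. The Cdx homeobox genes take over as the body lengthens at the tail end, where they set posterior identity upstream of Hox genes. Later in development Cdx1 and Cdx2, but not Cdx4, are known as factors of the intestinal lining, and Cdx2 and Eomes also act in the trophoblast, the outer lineage of the placenta.

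The stretches of DNA just upstream of 5 of these genes are shown because their first falls came at 2 different steps. Eomes and Mesp1 fell at the first daily step, and Cdx2, Cdx4 and Evx1 first fell at the next. Of the genes not shown, Mixl1 and Foxh1 fell at both of these steps. Each stretch holds the 250 bases before the start site in RefSeq's annotation of GRCm38.p6, written 5′ to 3′ along the gene's own strand. Capitals mark matches to any of 4 motifs searched on both strands: CTTTGA for TCF/LEF, GGTGTGA for T-box factors, TGTGNATT for FOXH1 and TTTATNG for CDX, where N is any base.
Mesp1, chr7:79793591-79793840, minus strand: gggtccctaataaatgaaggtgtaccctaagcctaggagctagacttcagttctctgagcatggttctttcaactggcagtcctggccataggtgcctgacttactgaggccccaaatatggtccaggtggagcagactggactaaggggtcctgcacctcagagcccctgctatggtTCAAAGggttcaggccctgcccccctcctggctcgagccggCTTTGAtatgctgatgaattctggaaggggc
Eomes, chr9:118477939-118478188, plus strand: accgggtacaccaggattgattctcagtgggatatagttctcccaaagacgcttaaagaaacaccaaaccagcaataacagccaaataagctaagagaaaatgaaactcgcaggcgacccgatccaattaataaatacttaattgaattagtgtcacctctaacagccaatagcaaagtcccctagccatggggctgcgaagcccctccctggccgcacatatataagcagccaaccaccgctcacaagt
Cdx2, chr5:147307250-147307499, minus strand: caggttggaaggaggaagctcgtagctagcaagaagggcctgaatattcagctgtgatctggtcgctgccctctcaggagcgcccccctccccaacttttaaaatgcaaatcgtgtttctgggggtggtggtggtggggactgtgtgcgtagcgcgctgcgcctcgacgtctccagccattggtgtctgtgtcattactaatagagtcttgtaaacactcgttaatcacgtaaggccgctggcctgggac
Cdx4, chrX:103321148-103321397, plus strand: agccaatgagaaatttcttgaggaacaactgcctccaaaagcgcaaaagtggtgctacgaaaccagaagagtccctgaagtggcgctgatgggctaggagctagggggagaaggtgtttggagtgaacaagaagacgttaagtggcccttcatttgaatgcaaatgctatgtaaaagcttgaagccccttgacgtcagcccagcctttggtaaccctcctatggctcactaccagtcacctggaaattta
Evx1, chr6:52313248-52313497, plus strand: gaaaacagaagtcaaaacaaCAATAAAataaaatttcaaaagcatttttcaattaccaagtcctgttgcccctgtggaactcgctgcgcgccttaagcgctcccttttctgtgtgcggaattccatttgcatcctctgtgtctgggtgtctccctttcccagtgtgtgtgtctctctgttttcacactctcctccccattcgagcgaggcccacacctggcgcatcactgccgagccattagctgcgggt
Mesp1 held 2 TCF/LEF matches, from base -72 to -67 on the opposite strand and from -31 to -26 on its own strand, counted back from the start site. At least 1 such match was found in 13.8% of 32851 RefSeq promoter windows of this length, and at least 2 in 1.37%. Evx1 held 1 CDX match, from -230 to -224 on the opposite strand, against 9.81% of windows. The T-box and FOXH1 motifs, which 3.33% and 3.18% of windows hold, were not found in these stretches. No match overlapped another. Gsc was searched in the same way and held none of the 4 motifs. Mixl1, Foxh1 and Cdx1 were not searched here.

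Values are MAS5 signals, scaled so that the trimmed mean of every array is 500.0. Within each array set described below, they are comparable between arrays for the same probe set, but not between probe sets. Changes are differences of log2(signal + 25.9), later minus earlier stage, with the SE of the limma fit. This scale understates changes at low signal. Genes with an adjusted p below 0.05 and a change of 2-fold or more are termed called, and only of these is it written that they rose or fell. The arrays are biological replicates by the labels, and the tests read the spread between pools.

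The arrays form 2 sets. On 12 arrays, from E7.5 to E10.5, the median signal was 67.2 to 91.1, and the middle probe set of the dap spike-in control read 50.8 to 119. On the other 8 arrays, from E12.5 to E18.5, the median was 156 to 178 and the dap control read 1812 to 2571. For E12.5 against E10.5, stage and array set therefore cannot be told apart. All other changes tested below lie within a set. Comparisons that have a stage in common share its arrays, so their values are not independent.

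Over the early span, E10.5 against E7.5, 8 of the 9 factors fell and 1, Gsc, rose. Over all genes tested 7.48% fell and 16.0% rose. The median change of the 9 was -2.61, against 0.11 over all genes tested. The log2 change was -5.20 ± 0.22 for Cdx1, -4.59 ± 0.31 for Cdx2, -4.07 ± 0.36 for Foxh1 and -3.58 ± 0.41 for Mixl1. It was -2.61 ± 0.27 for Mesp1, -1.78 ± 0.26 for Cdx4, -1.70 ± 0.42 for Evx1, -1.37 ± 0.25 for Eomes and 2.20 ± 0.27 for Gsc. These 9 changes had adjusted p of 0.00159 or less. Set against E8.5 in place of E7.5, 6 factors fell and 2 rose at E10.5, where 3.16% of all genes tested fell and 8.48% rose. Eomes changed side between these comparisons, at 1.97 ± 0.25 against E8.5, and Mesp1 was not called. The falls did not come at the same step, and the plot of signals by stage shows each factor's own course.

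**Figure D1:**
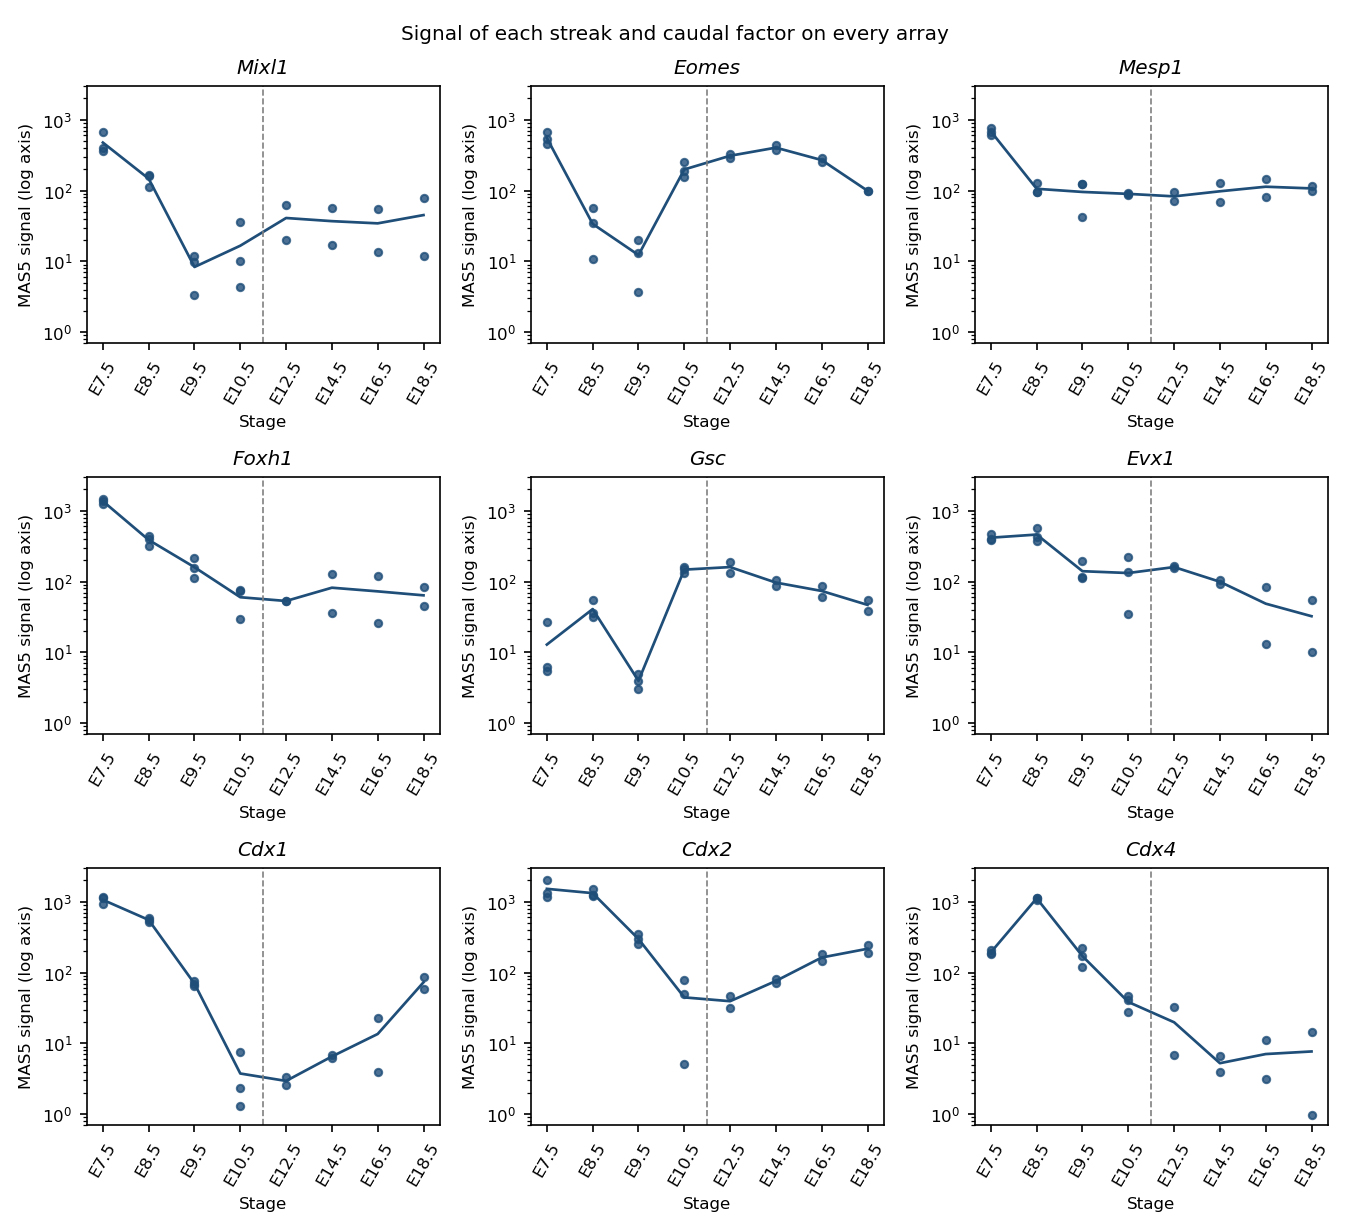
MAS5 signal (log axis) of the probe set that represents each gene, against stage; points are arrays, lines join stage means, and the dashed line separates the 2 array sets. Mixl1, Eomes, Mesp1 and Foxh1 were lower at E8.5 than at E7.5 on every array, Cdx4 was highest at E8.5 among the early stages, and Cdx1 and Cdx2 turned upward between E12.5 and E18.5.

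At the first step, E8.5 against E7.5, 4 factors fell and 1 rose, where 4.93% of all genes tested fell and 6.27% rose. The 4 that fell act during gastrulation: Eomes, Mesp1, Foxh1 and Mixl1. The 1 that rose was Cdx4. The median change of the 9 was -0.91, against 0.03 over all genes tested.

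Eomes, a T-box factor needed for mesoderm delamination and definitive endoderm, gave 56.3, 34.3 and 10.98 at E8.5, against 451, 535 and 669 at E7.5. Every E8.5 array lay below every E7.5 array, and the change was -3.33 ± 0.25 (adjusted p = 2.16e-09), or 10.1-fold. Its other probe set, 1426001_at, read 6.72, 36.2 and 5.21 at E8.5, against 758, 609 and 740.1 at E7.5. That probe set changed by -4.19 ± 0.30, the same direction with a larger size.

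Mesp1, a helix-loop-helix factor of the earliest cardiac and cranial mesoderm, gave 127, 96.8 and 94.6 at E8.5, against 767, 676 and 613 at E7.5. The groups did not overlap and Mesp1 fell by 2.43 ± 0.27 (adjusted p = 5.23e-07), or 5.40-fold. Most arrays of E9.5 and E10.5 lay near those of E8.5. Its signals were 41.7, 123 and 123 at E9.5 and 87.6, 89.4 and 92.7 at E10.5, and lay between 68.8 and 145 on the 8 later arrays. Those 8 are of the other array set, so their signals cannot be set directly beside E8.5. Mesp1 was above the array median on 3 arrays at E8.5, on 2 each at E9.5 and E10.5, and on 0 at each later stage. That median is itself higher in the late array set, at 156 to 178 against 67.2 to 91.1. These counts therefore cannot be compared across the sets either. No step after the first was called for Mesp1, and the change of E10.5 against E8.5 was -0.18 (95% interval -0.75 to 0.39).

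Foxh1, the winged-helix partner of SMAD proteins in NODAL signalling, fell at each of the first 3 steps. It gave 401, 317 and 445 at E8.5, against 1383, 1233 and 1486 at E7.5, and fell by 1.76 ± 0.36 (adjusted p = 0.000496). At E9.5 it gave 154, 111 and 214, a change of -1.18 ± 0.36 (adjusted p = 0.0263), and at E10.5 it gave 30.0, 74.7 and 75.8, a further change of -1.12 ± 0.36 (adjusted p = 0.0323). None of these successive groups overlapped. The calls of the 2 later steps depend on the pseudocount and on single arrays. With a pseudocount 4 times smaller the adjusted p was 0.0675 at E9.5 against E8.5, and with one 4 times larger the changes were -0.91 and -0.68, under 2-fold. Leaving out E8.5 replicate 1 or 3, or E9.5 replicate 1 or 2, gave adjusted p of 0.0619 to 0.117 at E9.5 against E8.5. At E10.5 against E9.5, leaving out E9.5 replicate 1 or 3, or E10.5 replicate 1, gave 0.0665 to 0.146.

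The probe set that represents Foxh1, 1422213_s_at, carries the suffix that Affymetrix gives where probes match more than a single transcript. The other 2 probe sets of Foxh1 fell at the first step with changes of -1.95 ± 0.43 and -1.92 ± 0.23, and at the next with -1.80 ± 0.43 and -1.41 ± 0.23. At E10.5 against E9.5 they parted: 1437779_at fell by 1.21 ± 0.23 (adjusted p = 0.00125), while 1422212_at changed by -0.10 ± 0.43 (adjusted p = 0.918). On 1437779_at the signal at E18.5 was 1.92 and 2.49, against 17.5 and 5.27 at E12.5, and this change, -0.39 ± 0.28, was not called. On the probe set that represents Foxh1 the late signals were 52.5 and 54.0 at E12.5, 35.7 and 128 at E14.5, 26.4 and 119 at E16.5, and 83.2 and 44.7 at E18.5. These groups overlapped or differed without a call, and the change of E18.5 against E12.5 was 0.15 ± 0.44 (adjusted p = 0.8).

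Mixl1, a paired-type homeobox factor of mesendoderm, fell over 2 steps. It gave 112, 169 and 161 at E8.5, against 404, 357 and 668 at E7.5, and fell by 1.50 ± 0.41 (adjusted p = 0.00617). At E9.5 it gave 3.36, 11.9 and 9.74, a further change of -2.33 ± 0.41 (adjusted p = 0.000372), or 5.04-fold. No arrays of neighbouring stages overlapped over these steps. The E9.5 signals lay at the 7.8th to 16.6th percentile of their arrays. At E10.5 Mixl1 gave 35.5, 10.1 and 4.34, overlapping E9.5, and the change of 0.25 was not called (adjusted p = 0.729). On the 8 arrays from E12.5 on it read 12.1 to 78.2, and no change there was called.

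The 2 lineages outside the embryo proper that share factors with the streak also moved at the first step. Of 7 trophoblast genes tested, 5 fell and 0 rose, with Elf5, a factor of trophoblast stem cells, at -4.86 ± 0.36 and Ascl2 at -4.09 ± 0.30. The summed signal of the 8 trophoblast genes with a probe set was 1473 to 1574 at E8.5, against 8997 to 16068 at E7.5, and Elf5 averaged 62.6 ± 28.6 at E8.5, against 2487 ± 483 at E7.5 (SD, n = 3 each). Of the 11 visceral endoderm genes, 10 fell at this step and 11 at the next. Their summed signal was 128082 to 150239 at E7.5, 36180 to 41451 at E8.5 and 4989 to 10378 at E9.5. Both sums were still higher on every array of E8.5 than on those of E9.5, where that of the trophoblast genes was 916 to 1039. The part of these tissues in the fall of Eomes and of the other factors was not tested.

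Among 16 other genes of the streak and gastrulation, 5 fell and 0 rose at the first step, with a median of -0.36. Sox17, a factor of endoderm, changed by -2.27 ± 0.11, Cer1, a secreted antagonist of NODAL and WNT, by -1.90 ± 0.35, Lefty2, an inhibitor of NODAL, by -1.89 ± 0.44, and Fgf5, a growth factor of the epiblast, by -1.66 ± 0.35. At the second step 4 fell and 0 rose, among them Cer1 and the NODAL co-receptor Tdgf1, at -2.03 ± 0.35 and -2.02 ± 0.33.

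None of the caudal genes was called as lower at the first step, although Cdx1 was lower by less than 2-fold. Cdx4, the X-linked member of the family, gave 1146, 1073 and 1140.4 at E8.5, against 187, 210.4 and 182 at E7.5. All arrays of E8.5 lay above all of E7.5, and Cdx4 rose by 2.39 ± 0.26 (adjusted p = 3.22e-07), or 5.23-fold. Among the stages of the early array set Cdx4 was highest at E8.5.

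Cdx2, which marks the posterior epiblast and the tail bud, gave 1532, 1192 and 1250.2 at E8.5, against 2058, 1172 and 1340.5 at E7.5. The groups overlapped, and the change of -0.16 was not called (95% interval -0.80 to 0.48, adjusted p = 0.723). Cdx2's other probe set, 1422074_at, changed by 0.02 ± 0.27.

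Cdx1, the member that responds to retinoic acid and WNT in the streak, gave 595, 519 and 549.9 at E8.5, against 1153, 924 and 1119.6 at E7.5. The groups did not overlap, but the change of -0.91 ± 0.22 (adjusted p = 0.00255) stayed under 2-fold and was not called. Without E7.5 replicate 2 it just passed 2-fold and was called (adjusted p = 0.00449).

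Evx1, a homeobox factor of the posterior streak, gave 578, 429.8 and 377 at E8.5, against 469.9, 384 and 397 at E7.5. The groups overlapped and the change was 0.12 (95% interval -0.75 to 1.00). In the plot of the 3 daily steps, the intervals of Eomes, Mesp1 and Foxh1 at the first step lie apart from those of Cdx2, Cdx4 and Evx1. Mixl1 and Cdx1 do not part in this way. The interval of Mixl1 (-2.36 to -0.65) overlapped those of Cdx1 (-1.37 to -0.45), Cdx2 and Evx1, and that of Cdx1 overlapped that of Foxh1. Differences between genes were not tested.

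**Figure D2:**
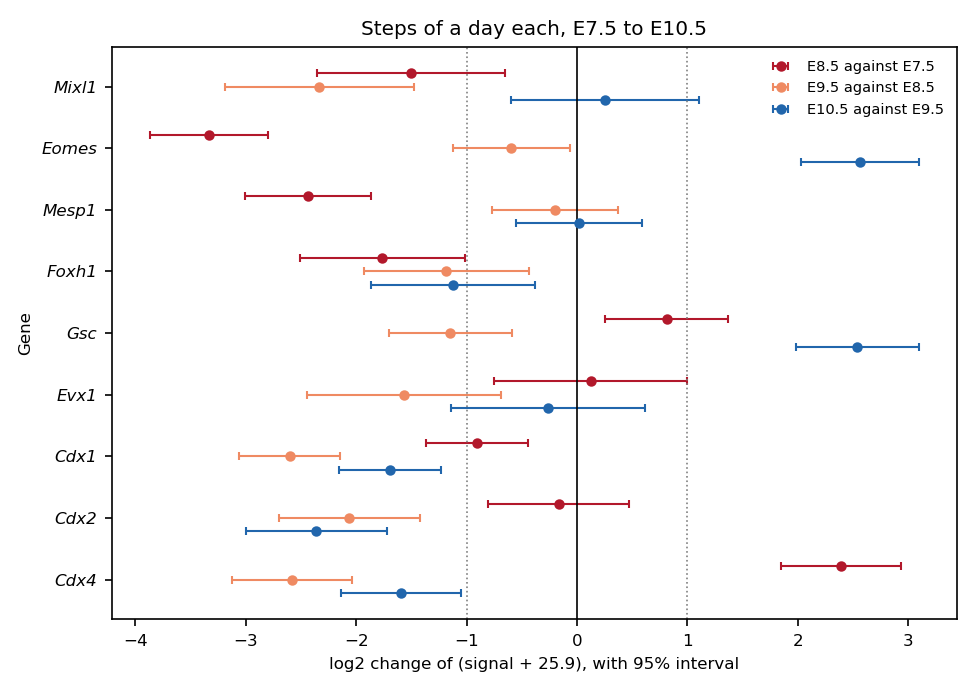
Log2 change of each factor at the 3 daily steps, with the 95% interval of the limma fit; dotted lines mark 2-fold. At E8.5 against E7.5 Eomes and Mesp1 were at -3.33 and -2.43, and at E9.5 against E8.5 Cdx1, Cdx2 and Cdx4 were at -2.60, -2.06 and -2.58.

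At the second step, E9.5 against E8.5, 7 of the 9 factors fell and 0 rose, where 1.68% of all genes tested fell and 2.49% rose. All 3 Cdx genes and Evx1 were among the 7, with Mixl1, Foxh1 and Gsc. Eomes, at -0.59 (adjusted p = 0.126), and Mesp1, at -0.20 (adjusted p = 0.704), were the 2 that were not called.

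Cdx4 gave 171, 222 and 119 at E9.5 and fell by 2.58 ± 0.26 (adjusted p = 5.17e-07), or 5.97-fold. Its E9.5 arrays overlapped those of E7.5. Cdx1 gave 68.3, 76.5 and 64.4 at E9.5 and fell by 2.60 ± 0.22 (adjusted p = 4.85e-08), or 6.07-fold. Cdx2 gave 250.3, 346 and 299 at E9.5 and fell by 2.06 ± 0.31 (adjusted p = 6.29e-05), or 4.17-fold. For each of the 3 genes, no array of E9.5 reached the lowest of E8.5. The other probe set of Cdx2 read 79.6, 139 and 51.0 at E9.5, against 569, 495 and 453 at E8.5, a change of -2.26 ± 0.27.

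Evx1 gave 114, 192 and 114 at E9.5 and fell by 1.57 ± 0.42 (adjusted p = 0.013). The groups did not overlap. Without E8.5 replicate 1 or without E9.5 replicate 3 the adjusted p was 0.0558 and 0.0519, and with a pseudocount 4 times smaller it was 0.05, so that Evx1 was not called in these settings.

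At the step after that, E10.5 against E9.5, 4 factors fell where 0.513% of all genes tested fell, and 2 rose where 3.15% rose. The 3 Cdx genes fell again. Cdx1 gave 1.32, 2.33 and 7.62 at E10.5 and fell by 1.69 ± 0.22 (adjusted p = 1.65e-05). Cdx2 gave 50.2, 78.7 and 5.10 and fell by 2.36 ± 0.31 (adjusted p = 1.66e-05), and Cdx4 gave 40.9, 27.3 and 47.2 and fell by 1.59 ± 0.26 (adjusted p = 0.000201). None of these groups overlapped with E9.5. The E10.5 signals of Cdx1 lay at the 1.1st to 12.0th percentile of their arrays. With a pseudocount 4 times larger, Cdx1 and Cdx4 fell short of 2-fold at this step, at -0.69 and -0.94, as did Foxh1 at -0.68, so that 3 of the 9 factors were called in place of 6.

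Evx1 gave 138, 34.9 and 223 at E10.5. These arrays reached from below the lowest to above the highest of E9.5, and the change of -0.26 was not called (adjusted p = 0.728).

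Genes of the tail bud and presomitic mesoderm, where WNT and FGF signals keep the body axis growing, were counted at the same steps. Of 18 tested, 5 rose and 0 fell at the first step (median 0.07), 0 rose and 9 fell at the second (median -0.90), and 0 rose and 3 fell at E10.5 against E9.5 (median -0.18). Over all genes tested the medians were 0.03, 0.01 and 0.05. The growth factors Fgf17 and Fgf8 rose at the first step by 2.31 ± 0.22 and 1.27 ± 0.24. At the second step Nkx1-2, a homeobox factor of caudal progenitors, changed by -2.30 ± 0.19, the segmentation clock factor Hes7 by -2.04 ± 0.39, the retinoic acid hydroxylase Cyp26a1 by -1.99 ± 0.26, and Tbx6, a T-box factor of unsegmented mesoderm, by -1.58 ± 0.18. The summed signal of the 19 genes with a probe set was 11322 to 12574 at E7.5, 11053 to 11406 at E8.5, 5759 to 6041 at E9.5 and 5371 to 5758 at E10.5.

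Eomes and Gsc were the 2 factors that rose late in the early array set. Both rose at E10.5 against E9.5, each by more than 5-fold on this scale, at a stage when gastrulation is over. The plot of Eomes and Gsc beside marker genes sets them next to genes of the tissues where they are known to act later.

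Eomes gave 20.3, 3.66 and 13.0 at E9.5, then 158, 189.6 and 249 at E10.5, 333 and 287 at E12.5, 438 and 370.1 at E14.5, 255 and 285 at E16.5, and 99.5 on both arrays of E18.5. E10.5 lay wholly above E9.5, with a rise of 2.56 ± 0.25 (adjusted p = 6.4e-07), or 5.90-fold. E18.5 lay below E16.5, with a change of -1.24 ± 0.31 (adjusted p = 0.009), and below E12.5, with a change of -1.42 ± 0.31 (adjusted p = 0.000711). The call of E18.5 against E16.5 was lost without E16.5 replicate 2 or either array of E18.5, at adjusted p of 0.0565 to 0.0717, and with a pseudocount 4 times smaller (adjusted p = 0.0617) or larger (a change of -0.88). On its other probe set Eomes rose by 2.17 ± 0.30 at E10.5 and changed by -2.24 ± 0.37, a called fall, at E18.5 against E12.5.

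Eomes is known, under the name Tbr2, as a factor of the intermediate progenitors of the cerebral cortex. The RNA is of whole embryos, so the signal of genes on the cortex list need not come from the cortex. Of 9 such genes tested, 2 rose and 0 fell at E10.5 against E9.5. The 2 were Bcl11b (2.96 ± 0.25) and the progenitor factor Insm1 (1.44 ± 0.30). At E18.5 against E12.5, where 15.2% of all genes tested rose and 6.44% fell, 0 rose and 4 fell, namely the proneural factor Neurog2 (-3.23 ± 0.24), Insm1 (-2.29 ± 0.37), and the forebrain factors Emx2 (-1.64 ± 0.29) and Fezf2 (-1.20 ± 0.26). Neurog2 itself rose before Eomes did, by 2.07 ± 0.20 at E8.5 and 1.91 ± 0.20 at E9.5, steps at which Eomes was low, and at E10.5 against E9.5 its change of 0.64 was not called. The summed signal of the 10 cortex genes with a probe set was 1188 to 1461 at E9.5, 2569 to 2917 at E10.5, 5800 to 6145 at E12.5 and 2966 to 3090 at E18.5. Eomes also acts in cytotoxic lymphocytes, of whose genes 3 were tested, with 1 rise and 0 falls at E18.5 against E12.5, too few genes to read against the 15.2% of all genes. The summed signal of the 10 of these with a probe set was 833 to 949 at E18.5, against 419 to 458 at E12.5. The part of these cells in the signal of Eomes was not tested.

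**Figure D3:**
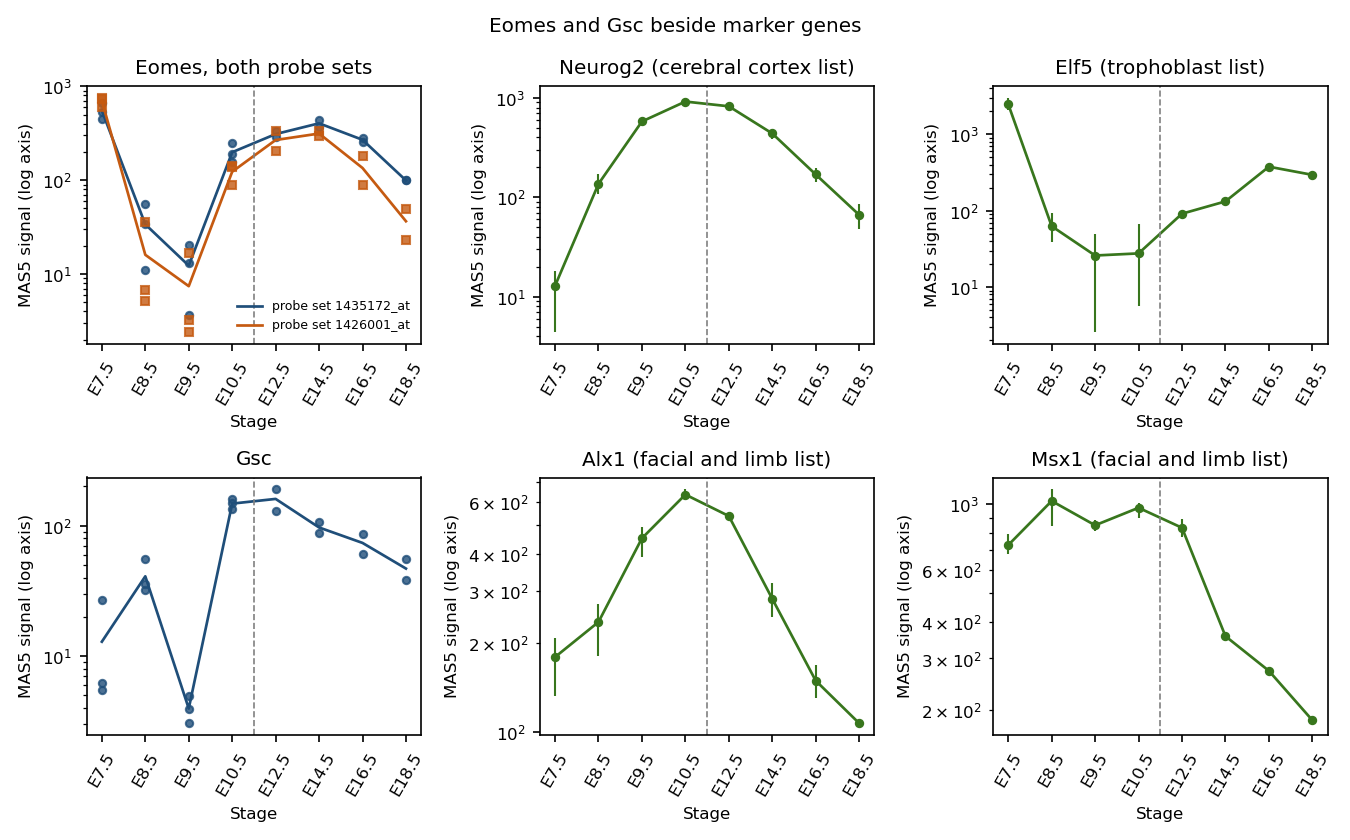
MAS5 signal (log axis) of Eomes and Gsc on every array, with lines through the stage means, beside 4 marker genes given as means with the lowest and highest array. Eomes was high at E7.5, low at E8.5 and E9.5 and higher again at E10.5, while Neurog2 had already risen at E8.5 and E9.5. Gsc stood at 134 to 159 on the E10.5 arrays, and Alx1, which was highest at E10.5, was not called at E10.5 against E9.5 (0.47, adjusted p = 0.0619).

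Gsc, the goosecoid homeobox factor, had low signal at E7.5, the earliest stage sampled, although the group is named for the streak. It gave 31.9, 55.4 and 35.4 at E8.5, against 5.53, 27.0 and 6.21 at E7.5, where it lay at the 11.7th to 29.6th percentile of the arrays. The change of 0.81 ± 0.27 (adjusted p = 0.0202) was under 2-fold. At E9.5 Gsc gave 3.05, 3.92 and 4.94, below all arrays of E8.5, and fell by 1.15 ± 0.27 (adjusted p = 0.00455), a call lost without E8.5 replicate 2, where the change was just under 2-fold, and with a pseudocount 4 times larger, where it was -0.42. With a pseudocount 4 times smaller Gsc was called at E8.5 against E7.5 too, at 1.43 (adjusted p = 0.0115). The E9.5 signals lay at the 6.0th to 8.1st percentile.

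At E10.5 Gsc gave 134, 149.7 and 159, far above every earlier array, and rose by 2.54 ± 0.27 (adjusted p = 1.31e-06), or 5.80-fold. It then gave 190.2 and 130.4 at E12.5, 87.3 and 106 at E14.5, 61.2 and 86.3 at E16.5, and 38.4 and 55.4 at E18.5. E18.5 lay below E12.5, and Gsc fell by 1.35 ± 0.33 (adjusted p = 0.00164), with no step between them called. Gsc is known to act later in the mesenchyme of the face and limbs. Of 8 genes of that tissue tested, 1 rose at E10.5 against E9.5, Prrx1 by 1.11 ± 0.15, and at E18.5 against E12.5 5 fell and 0 rose, among them Alx1 (-2.08 ± 0.21) and Msx1 (-2.02 ± 0.14), homeobox factors of facial mesenchyme. The summed signal of the 9 genes with a probe set was 7553 to 8301 at E10.5, against 5532 to 6093 at E9.5, and 3342 to 3505 at E18.5, against 7991 to 8128 at E12.5. The part of this tissue in the signal of Gsc was not tested.

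Between E10.5 and E16.5 no step was called for any of the 9 factors. At E12.5 against E10.5, E14.5 against E12.5 and E16.5 against E14.5, limma called 0 of 9, where 10.6%, 3.28% and 3.6% of all genes tested rose and 2.03%, 0.37% and 0.178% fell. At an unadjusted p below 0.05 there were 1, 0 and 1 of the 9, Eomes at the first of these steps and Cdx2 at the last. With 2 arrays a stage from E12.5 on, these steps were measured with SE of 0.25 to 0.51, so that a change of 2-fold in the least precise genes, Mixl1 and Evx1, lay within about 2 SE.

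**Figure D4:**
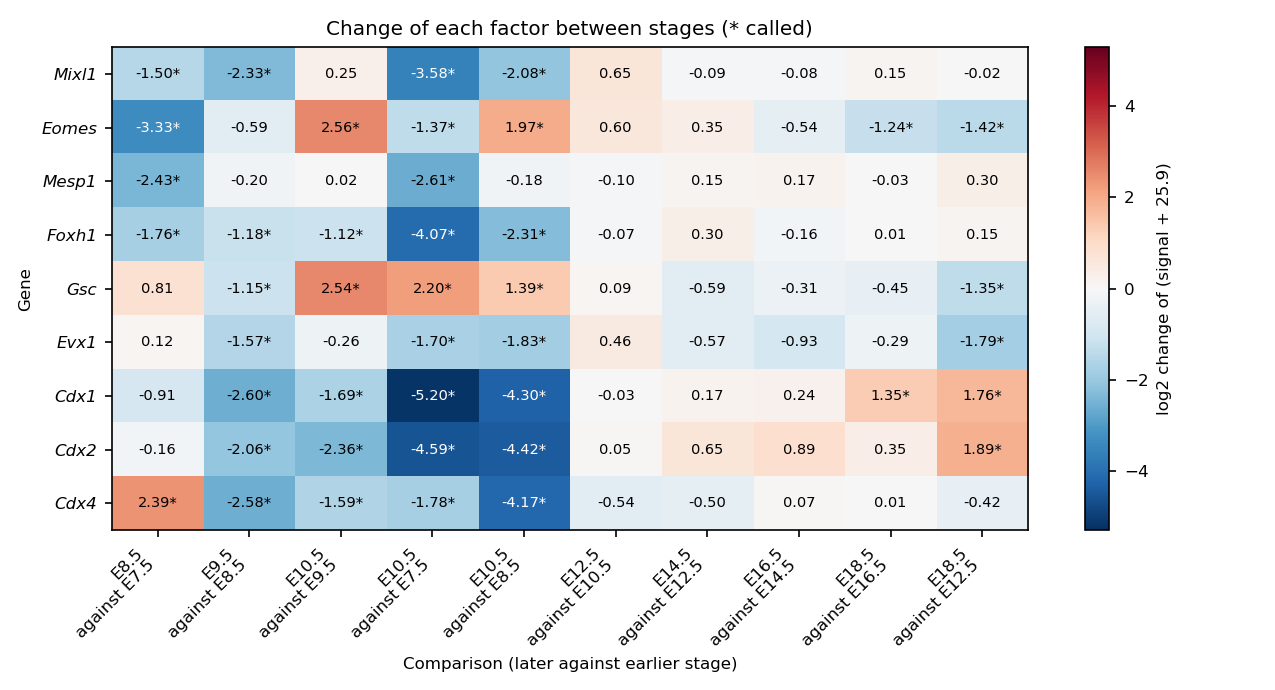
Log2 change of each factor (rows) in every comparison (columns), later minus earlier stage, with an asterisk where it was called; red is higher and blue is lower at the later stage. Asterisks are absent from E12.5 against E10.5, E14.5 against E12.5 and E16.5 against E14.5, and at E18.5 against E12.5 Cdx1 and Cdx2 were at 1.76 and 1.89.

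Over the late span, E18.5 against E12.5, 2 factors rose and 3 fell, where 15.2% of all genes tested rose and 6.44% fell. The 2 that rose were Cdx1 and Cdx2. The 3 that fell were Eomes, Gsc and Evx1, and the changes of Cdx4, Mixl1, Mesp1 and Foxh1 were not called.

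Cdx1 gave 59.4 and 86.4 at E18.5, against 2.57 and 3.33 at E12.5, and rose by 1.76 ± 0.27 (adjusted p = 1.58e-05). In between it gave 6.82 and 6.25 at E14.5, and 3.99 and 23.2 at E16.5. Both arrays of E18.5 lay above all 6 arrays of the 3 stages before it. The rise of Cdx1 came at the last step, E18.5 against E16.5, at 1.35 ± 0.27 (adjusted p = 0.00141). At that step 3.52% of all genes tested rose and 0.776% fell, and of the factors only Cdx1 rose and only Eomes fell. Without E16.5 replicate 1 the change of Cdx1 was just under 2-fold and not called, and with a pseudocount 4 times larger it was 0.59. Even at E18.5 the signal of Cdx1 lay at the 28.8th to 36.0th percentile of the array, below the array median.

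Cdx2 gave 187 and 247 at E18.5, against 31.7 and 47.2 at E12.5, and rose by 1.89 ± 0.38 (adjusted p = 0.000268). It gave 80.5 and 71.9 at E14.5 and 146 and 181 at E16.5. Each stage lay above the one before it with no overlap, and the steps were 0.65, 0.89 and 0.35, none of them called. Its other probe set, 1422074_at, gave 19.8 and 54.8 at E18.5, against 7.22 and 2.97 at E12.5. There the change was 0.97 ± 0.33 (adjusted p = 0.0203), in the same direction but under 2-fold. The 2 probe sets correlated at 0.95 over the 20 arrays.

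The late signal of these genes was below that of the streak stages on the same probe sets, although those arrays are of the other set. Cdx1 averaged 72.9 ± 19.1 at E18.5 (SD, n = 2) and 1066 ± 124 at E7.5 (n = 3). Cdx2 averaged 217 ± 43.0 at E18.5 (n = 2) and 1524 ± 471 at E7.5 (n = 3). Array set and stage cannot be told apart in these pairs of values.

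Cdx4 had no called change late in development. It gave 6.84 and 32.9 at E12.5, 3.97 and 6.54 at E14.5, 3.15 and 11 at E16.5, and 14.4 and 0.96 at E18.5, and the change of E18.5 against E12.5 was -0.42 (95% interval -1.08 to 0.25). All its arrays from E14.5 on lay at or below the 10.8th percentile. Whether the late change of Cdx4 differs from that of Cdx1 or Cdx2 was not tested.

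Genes of the intestinal lining rose over the same stages. Of 22 tested, 20 rose and 0 fell at E18.5 against E12.5, with a median of 3.27 against -0.09 over all genes tested. Rises came mainly at the last 2 steps, 14 at E16.5 against E14.5 and 12 at E18.5 against E16.5, with 3 at E14.5 against E12.5. Apoa4, an apolipoprotein of enterocytes, rose by 8.30 ± 0.44, Fabp2, the intestinal fatty acid binding protein, by 7.23 ± 0.27, the galectin Lgals4 by 6.12 ± 0.32 and Fabp1 by 5.68 ± 0.34. Fabp2 averaged 12217 ± 1192 at E18.5, against 56.0 ± 5.2 at E12.5 (SD, n = 2 each). The summed signal of the 24 genes with a probe set was 59495 to 66411 at E18.5, against 1836 to 1968 at E12.5. The rise was not limited to this list. Of the 11 genes listed above for visceral endoderm, 7 rose and 0 fell at E18.5 against E12.5, with a median of 2.30. Which tissues of the whole embryo gave the late signal of either list was not tested. The part of gut growth, or of other tissues, in the rise of Cdx1 and Cdx2 was not tested.

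Some genes of this list also had high signal at E7.5. At E8.5 against E7.5, 4 of the 22 fell and 1 rose. The 4 were Fabp1 (-3.40 ± 0.28), Vil1, an actin bundler of microvilli (-2.61 ± 0.27), Apoa4 (-2.14 ± 0.36) and Fabp2 (-1.78 ± 0.22). Vil1 and Apoa4 are known from visceral endoderm too. Vil1 averaged 177 ± 35.6 at E8.5, against 1202 ± 84.9 at E7.5 (SD, n = 3 each), while Cdx2 was not called at this step.

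**Figure D5:**
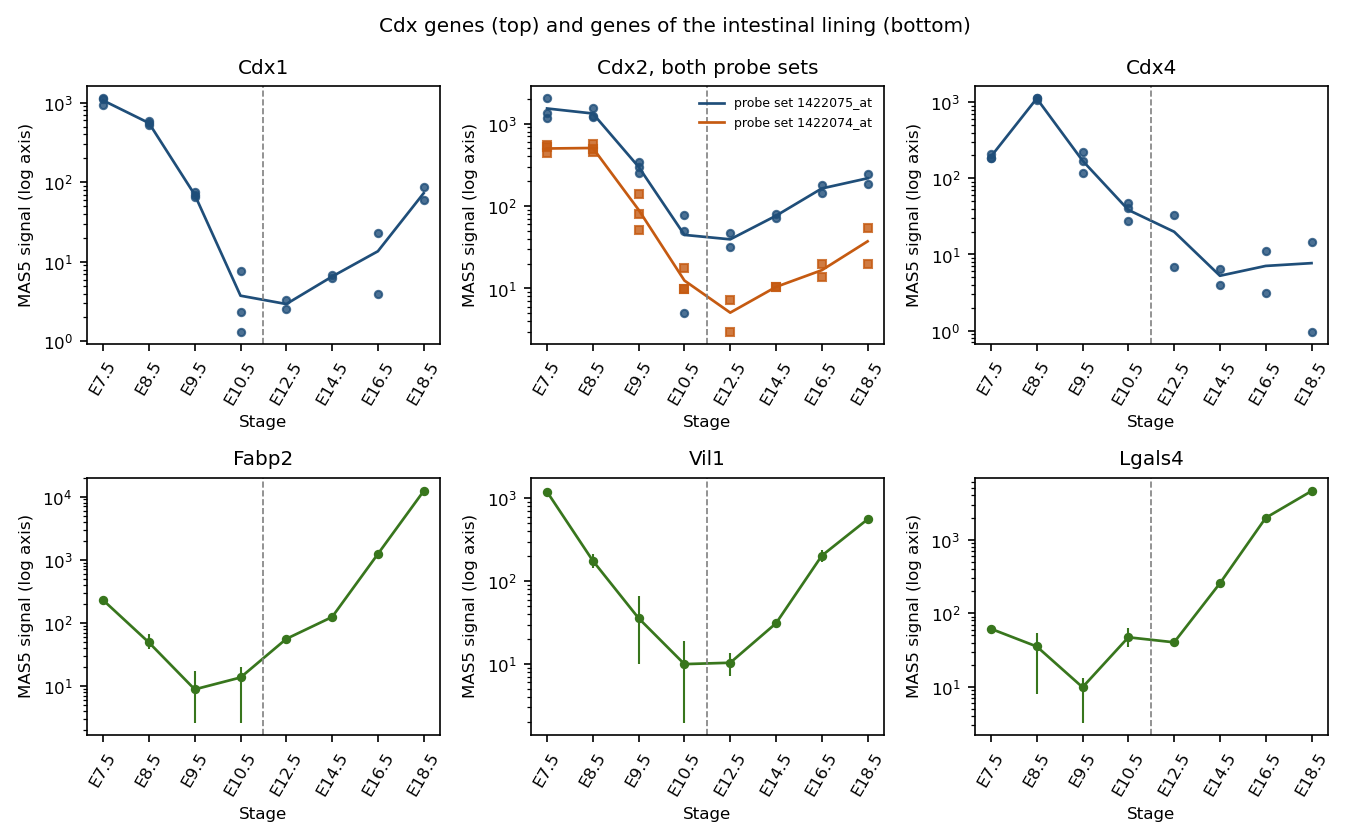
MAS5 signal (log axis) against stage for the Cdx genes on every array (top, lines through stage means) and for Fabp2, Vil1 and Lgals4 as means with the lowest and highest array (bottom). Cdx1 and Cdx2 were low at E10.5 and E12.5 and higher at E18.5, as were the 3 intestinal genes, while Cdx4 stayed low.

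In the late array set Evx1 gave 153 and 168 at E12.5, and 92.2 and 107 at E14.5. It gave 84.4 and 13.2 at E16.5, and 54.8 and 10.1 at E18.5. E18.5 lay below E12.5 and Evx1 fell by 1.79 ± 0.51 (adjusted p = 0.00608), a call lost without E18.5 replicate 2 (-1.21, adjusted p = 0.115). Evx1 is known from ventral interneurons of the spinal cord. A wider list of spinal cord neuron genes, not only of neurons with Evx1, was counted beside it. Of its 10 genes tested, 4 fell and 0 rose at E18.5 against E12.5. Lhx5 was at -2.69 ± 0.30 and Isl1, a factor of motor neurons and other neurons, at -2.09 ± 0.13. Summed over these 10 genes the signal was 1121 to 1134 at E18.5, against 3237 to 3374 at E12.5. The part of spinal cord neurons in the fall of Evx1 was not tested.

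Across the 20 arrays, log2 signals of Cdx1 and Cdx2 had a Pearson correlation of 0.95, and those of Cdx1 and Foxh1 one of 0.92. Eomes correlated with Cdx2 at -0.22 and with Mixl1 at 0.34. These values describe 8 stages and 2 array sets and were not tested. The tested genes outside the group with the most similar profile over the 20 arrays were Foxa2 for Cdx1 (0.98), P3h2 for Cdx2 (0.96), Lhpp for Cdx4 (0.97), Dnmt3l for Mesp1 (0.96) and Trap1a for Foxh1 (0.96). For Eomes it was Epb41l3 (0.95), for Mixl1 Sh3tc1 (0.94), for Evx1 Tmem165 (0.91) and for Gsc Nacad (0.90). Over the 8 late arrays alone it was Cpt2 for Cdx1 and Cp for Cdx2, both at 0.99.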

How the data were processed

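Total RNA of pooled whole mouse embryos was measured on 20 arrays. The deposited values are intensities on a linear scale, a signal for each probe set. Per the submitters' processing notes the authors used MAS5, whose version is not given in the sources used here. The mean of each array without the lowest and highest 2% was 500.0.

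Probe sets with a single symbol in the platform annotation (34958) were used, not the 932 with several or the 9211 with none. RefSeq held the Entrez identifier of 34754, and 0 symbols changed through it. A gene was represented by its probe set with the highest mean. Genes above the array median on at least 2 arrays (14045 of 18194) were tested. The pseudocount of 25.9 is the lower quartile of an array, as the median of the 20. Stage means of log2(signal + 25.9) were estimated from all 20 arrays with limma 3.58.1 in R 4.3.3 (eBayes with trend, 12 residual degrees of freedom, two-sided, Benjamini-Hochberg over all genes tested). The fit was tested on simulated data. The number of arrays limits the precision.

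The members, gene lists and comparisons were chosen with earlier results of these data known. All members are named, with up to 4 called list genes of the largest change, list genes whose level is given beside a result, and the genes of most similar profile. The alternatives changed the scaling (75th percentile of each array, or quantile normalization), the pseudocount (4 times larger or smaller), the filter (none, or stricter), the probe sets (their mean, or each as a feature with a gene counted where any is called), the arrays fitted (the 2 stages, or 1 array set), the minimum fold (none) and the arrays left out (each in turn), or added a block for replicate number.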

Additional observations from a re-analysis of the deposited data

How the results depend on the processing

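The number of factors called stayed within 1.5 times its value under the alternatives, with these exceptions. At E10.5 against E9.5 it was 3 in place of 6 with a pseudocount 4 times larger. At E18.5 against E16.5 it was 1 in place of 2 with a pseudocount 4 times smaller and 0 with one 4 times larger, and 1 to 2 with each array left out. At E18.5 against E12.5 it was 2 in place of 5 with a pseudocount 4 times larger, where Cdx1 (0.72), Gsc (-0.80) and Evx1 (-0.98) were under 2-fold, and 4 to 5 with each array left out. A larger pseudocount shrinks changes at low signal by construction. Of 1398 values for single factors under the alternatives, 1362 kept their direction and side of the threshold, 31 lost the call, 5 gained it and 0 reversed. With every probe set as a feature a factor counted where any of its probe sets was called, so these numbers leave out 2 single probe sets without a call, 1422212_at of Foxh1 at E10.5 against E9.5 (-0.10) and 1422074_at of Cdx2 at E18.5 against E12.5 (0.97). Mixl1 at E8.5 against E7.5 had an adjusted p of 0.055 with a pseudocount 4 times smaller.

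With the replicate number as a block the counts were 5, 7, 6, 9, 8, 0, 0, 0, 2 and 5 for the 3 daily steps, E10.5 against E7.5 and against E8.5, the 4 steps from E12.5 against E10.5 on, and E18.5 against E12.5, equal to those without it. Deviations of same-numbered arrays correlated at -0.07 to 0.28, over 0.1 in 13 of 62 pairs, against 0 of 112 pairs of different number, and 11 of 20 arrays were closest to their own number. The main fit did not use the numbers to pair the arrays. These correlations do not settle whether some arrays of the same number share a batch, and this was not tested. Over all genes the block moved the calls by less than 1.5 times, at most at E12.5 against E10.5, with 1911 in place of 1769. Over all genes, rises made up 68.2% of the calls of E10.5 against E7.5, and 56.4% with scaling by the 75th percentile, for which the median over all genes was -0.06 in place of 0.11. Quantile normalization gave 75.5% in place of 86.0% at E10.5 against E9.5. At E12.5 against E10.5 the share was 58.3% after quantile normalization and 51.6% with scaling by the 75th percentile, in place of 83.9%, and the factors called were 0 in each.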

Other observations

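On all 4 stages of the late array set Mixl1 read higher in replicate 1 than in replicate 2. Its signals were 61.7 and 20.3 at E12.5, 56.8 and 17.2 at E14.5, 55.5 and 13.4 at E16.5, and 78.2 and 12.1 at E18.5, in the order of replicates 1 and 2. The replicate 1 arrays placed it between percentiles 28.8 and 33.9 and the replicate 2 arrays between 10.2 and 15.5. This pattern was noticed after the values were seen, and its cause was not tested. Among the Cdx genes, the array with the highest late signal of Cdx1, E18.5 replicate 2, was also the highest late array of both probe sets of Cdx2.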
